A study of Mus musculus with 48 samples.

Results

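A 6 Mb stretch of mouse chromosome 4 around Nfib, from 80 to 86 Mb on build mm9, was examined for sites of open chromatin in 3 lists of ATAC-seq summits. ATAC-seq marks accessible DNA by the insertions of the Tn5 transposase, and a summit is the single base at which a called peak is highest. The stretch held 3712 of the 630424 summits in these lists: 2172 of 251512 in the list of a CMV pool, 501 of 172434 in that of a CGRP pool and 1039 of 206478 in that of a mixed pool. Its members were chosen by their position, and the stretch itself was selected on the summit densities and scores of these same lists. Its densities, scores and sharing are therefore descriptions, with no test. Each pool is 1 list of merged libraries, so no value has a replicate error.

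All libraries came from tumors of mice with the genotype Trp53-/-;Rb1-/-;p130-/-;R26mG, a model of small cell lung cancer. Tumors were started by an adenovirus that carries Cre behind the CMV promoter, which is active in many cell types (Ad-CMV-Cre), or behind the CGRP promoter, which restricts Cre to neuroendocrine cells (Ad-CGRP-Cre). The CMV pool joined 19 Ad-CMV-Cre libraries of preparation batch 1 (9 lung tumors, 10 liver metastases). The CGRP pool joined 14 Ad-CGRP-Cre libraries of batch 2 (7 lung tumors, 7 liver metastases). The mixed pool joined 15 libraries of batch 3, of which 11 were Ad-CMV-Cre and 4 Ad-CGRP-Cre (11 lung tumors, 3 liver metastases, 1 lymph node metastasis). By sequencing, the CMV pool joined batches 1 and 3, the CGRP pool was all of batch 2 and the mixed pool all of batch 3. Vector, batch and list cannot be told apart between the CMV and CGRP pools, and the labels used here give no age or strain.

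The labels called 15 of the 48 libraries Nfib-amplified, and these were spread unevenly over the pools. They made up 8 of 19 libraries of the CMV pool (42.1%), 1 of 14 of the CGRP pool (7.14%) and 6 of 15 of the mixed pool (40.0%). The titles of the amplified libraries carry 3 codes in the CMV pool and 1 code in each other pool. The labels do not say what a code marks, so how many animals the 6 amplified libraries of the mixed pool stand for is not known. Chromatin was labelled hyperaccessible in all 14 amplified libraries of the CMV and mixed pools, but not in the 1 of the CGRP pool. In the CMV pool, 15 of 19 libraries were marked low in enrichment, 6 of them amplified, against 0 in the other pools. The CMV-pool libraries of sequencing batch 3 were all not amplified and all marked low in enrichment. In that pool 4 titles also occur 2 times. The part of enrichment in the values below was not tested.

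Nfib encodes nuclear factor I/B, a transcription factor of the NFI family that binds DNA as a dimer and acts in the development of lung and brain. In mouse models of small cell lung cancer, extra copies of Nfib are a recurrent event and go with raised expression and metastasis. The lists used here hold no copy number, so the word amplified rests on the labels alone, and the part of DNA copies in the values below was not tested. Each pool also joins amplified with other libraries, and how much each library gave to a summit cannot be told apart. Nfib was placed at about 81.93 to 82.16 Mb, rounded ends that were not read from an mm9 annotation. By gene order in the RefSeq gene table of build GRCm38.p6, its nearest protein-coding neighbors are Mpdz, Lurap1l and Tyrp1 on the lower side and Zdhhc21, Cer1 and Frem1 on the upper side. Mpdz encodes a PDZ-domain scaffold, Tyrp1 an enzyme of melanin synthesis, Zdhhc21 a palmitoyltransferase, Cer1 a secreted antagonist of BMP and Nodal, and Frem1 an extracellular matrix protein.

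Summits were denser around Nfib than in the flanks in all 3 lists. The flanks are 70 to 80 Mb and 86 to 92 Mb, together 16 Mb. The CMV pool had 362 summits per Mb in the stretch and 156 in the flanks, a ratio of 2.33 (95% exact binomial interval 2.19 to 2.46, counting error only). The CGRP pool had 83.5 and 36.1 per Mb, a ratio of 2.31 (2.05 to 2.61). The mixed pool had 173 and 64.2 per Mb, a ratio of 2.70 (2.47 to 2.94). The CMV and CGRP intervals overlapped, and that of the mixed pool lay just above the CMV interval. Among the 100000 highest-scoring summits of each list the ratios were further apart, at 3.93, 2.01 and 2.72 in the CMV, CGRP and mixed pools. Spacing followed density: neighboring CMV summits were a median of 1519 bp apart in the stretch and 4369 bp in the flanks, against 5458 and 9256 bp in the CGRP pool and 3399 and 7337 bp in the mixed pool. The flanks stood differently against the genome of each list. The median window of a Mb over the genome held 98, 66 and 84 summits in the CMV, CGRP and mixed lists. The CMV flanks lay above that median, and the CGRP and mixed flanks below it. The stretch lay above it in all 3 lists, far more so in the CMV than in the CGRP list. The near-equal CMV and CGRP ratios thus hold against the flanks only. The flanks were not uniform. The lower flank had 163, 25.2 and 60.1 summits per Mb in the CMV, CGRP and mixed pools, and the upper flank 143, 54.3 and 71.0.

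Ranks in the genome differed between the pools. In the CMV pool, the 5 densest of 2577 windows of 1 Mb were the 5 windows from 81 to 86 Mb, with 445, 354, 368, 388 and 349 summits in order of position, where the median window held 98. The window from 80 to 81 Mb ranked 9th in that list, with 268, behind a window of the upper flank, 87 to 88 Mb, that ranked 7th with 284. In the mixed pool the windows at 82 to 83 Mb (285 summits) and 83 to 84 Mb (273) ranked 3rd and 5th of 2569, where the median window held 84. The densest window of that list also lay on chromosome 4, from 122 to 123 Mb, with 354 summits. In the CGRP pool the densest window of the stretch was at 82 to 83 Mb, with 165 summits and rank 25 of 2555, and the median window held 66. The remaining CGRP windows ranked from 527 (83 to 84 Mb) to 1830 (85 to 86 Mb, 37 summits). Dense windows were frequent elsewhere on chromosome 4 too. It held 9, 4 and 8 of the 10 densest windows of the CMV, CGRP and mixed lists. Of these, 6, 0 and 2 lay in the stretch.

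**Figure D1:**
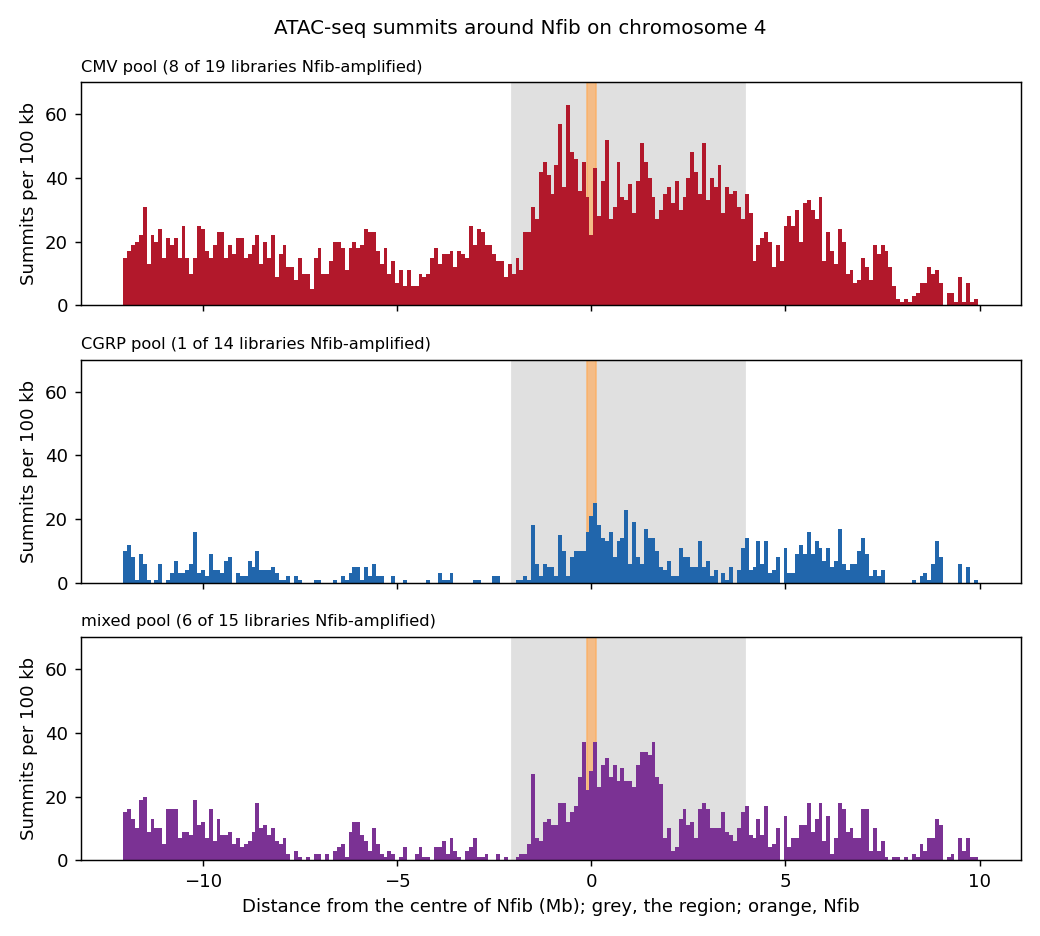
Number of summits per 100 kb (y axis) against distance from the centre of Nfib in Mb (x axis) for each pool, with the 6 Mb stretch in grey and Nfib in orange. The CMV counts rise at 80.5 Mb and reach 63 summits per 100 kb, the mixed pool forms a plateau that ends sharply at 83.9 Mb, and the CGRP pool stays at or below 25.

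The outlines of the dense stretch differed between the lists. Edges were located, by a scan set after the data were seen, as the boundaries between windows of 100 kb from 79 to 87 Mb where the means of the 5 windows on either side differed most. In the mixed pool the count rose from a mean of 16 to 30 per window at 81.7 Mb and fell from 30.8 to 7.4 at 83.9 Mb. These edges enclose Nfib and lie mostly on its upper side. The CGRP count rose from 8 to 18.8 at 81.9 Mb, close to the lower end of Nfib, and fell from 12.2 to 4 at 83.8 Mb. The CMV rise lay further out, from 16.4 to 37.2 at 80.5 Mb. That list had no comparable fall within the stretch: its largest step down, from 47.6 to 33.2 at 81.9 Mb, lay inside the plateau. Its counts then dropped from 29 to 14 between the windows that start at 86.1 and 86.2 Mb.

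The fullest windows of 100 kb were also at different places. For the CMV list they started at 81.4 Mb (63 summits), 81.2 Mb (57) and 82.4 Mb (52), the first pair of them below Nfib. For the CGRP list they started at 82.1 Mb (25), 82.9 Mb (23) and 82 Mb (21), so that 2 of the 3 touch Nfib. In the mixed pool 3 windows held 37 summits each, at 81.8, 82.1 and 83.6 Mb. The lowest window of the stretch, from 80 to 80.1 Mb, held the fewest summits in every list, with 10 CMV summits and 0 in the other lists, where the CGRP pool also had 0 at 85.3 and 85.7 Mb.

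The score of a summit is the −log10 of its q-value in the deposited list, so it ranks summits within a list only. In the CMV pool the median score was 8.97 in the stretch (95% binomial interval 8.30 to 9.53) and 5.002 in the flanks (4.77 to 5.21), with 8.68 over all its summits. The CGRP pool had the opposite order: 15.3 in the stretch (12.4 to 19.8), 21.6 in the flanks (18.03 to 26.3) and 24.3 over all summits. The intervals of its stretch and flanks overlapped. Its ratio of stretch to flanks was 0.708 (0.573 to 0.917). It was 0.704 (0.534 to 0.923) with 1 summit per called peak and 0.499 (0.405 to 0.771) among summits near both other pools. The interval reached 1 with flanks at 75 to 80 and 86 to 91 Mb, at 0.796 (0.644 to 1.03). It also did for 81 to 84 Mb, at 0.767 (0.591 to 1.02). The mixed pool had 11.8 (10.7 to 13.2), 11.2 (9.98 to 13.1) and 16.8. The mixed ratio of stretch to flanks, 1.05, changed direction with the flanks taken. It was 0.848 (0.766 to 0.948) against 75 to 80 and 86 to 91 Mb, and 1.25 (1.04 to 1.63) among summits near both other pools. The intervals of these ratios of medians hold the flank median fixed. They leave out its error and are too narrow, so the direction of the mixed ratio is not settled. Of the CMV summits in the stretch, 327 (15.1%) were in the top 10% of their list, against 140 (13.5%) in the mixed pool and 30 (5.99%) in the CGRP pool. In the flanks these shares were 7.87%, 10.6% and 11.9%.

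Split by score, the density ratio rose with score in the CMV list and was lowest in the strongest CGRP class. The class limits are the same scores in every list, so a class holds a different part of each list. Scores of 486, 478 and 487 stood at percentiles 99.3, 92.9 and 97.5 of the CMV, CGRP and mixed lists. The ratios are therefore read along a list and not between lists. In the CMV pool the ratio of stretch to flanks was 1.35 (1.23 to 1.49) for summits with a score under 5, 3.08 (2.82 to 3.36) from 5 to 50, 3.65 (3.08 to 4.32) from 50 to 500 and 5.77 (4.07 to 8.27) at 500 and above. The strongest class held 106 summits in the stretch, or 17.7 per Mb, and 49 in the flanks, or 3.06 per Mb. In the CGRP pool the ratio was 2.55 (1.95 to 3.34) under 5 and 1.197 (0.689 to 2.02) at 500 and above, where 22 summits lay in the stretch and 49 in the flanks. A raised density of the strongest CGRP summits was thus not detectable at these counts. The mixed pool had ratios of 2.78, 2.59 and 2.61 in the 3 lower classes and 3.87 (2.54 to 5.94) in the strongest, with 58 summits in the stretch and 40 in the flanks.

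**Figure D2:**
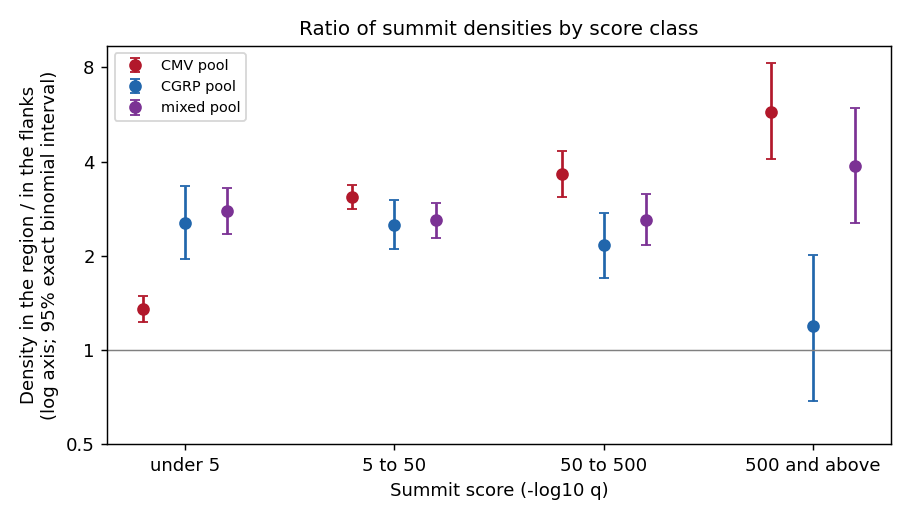
Ratio of the summit density in the 6 Mb stretch to that in the flanks (y axis, log scale) for 4 classes of score (x axis) in each pool; points are ratios and bars 95% exact binomial intervals for counting error. The CMV ratio goes from 1.35 in the weakest to 5.77 in the strongest class, while the CGRP ratio is 2.55 in the weakest and 1.197 in the strongest. A class of equal scores holds a different part of each list.

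To hold the sites constant, the comparison was repeated at sites where each list had a summit and all 3 summits lay within 250 bp of each other. There were 112089 such sites in the genome, 389 of them in the stretch (64.8 per Mb) and 426 in the flanks (26.6 per Mb). Each site was given the percentile of its score among all these sites, separately in each list. In the CMV list the sites of the stretch had a median percentile of 86.8 (quartiles 57.0 and 98.2), and 307 of 389 (78.9%) lay above that list's midpoint. In the CGRP list the very same sites had a median percentile of 30.8 (quartiles 10.6 and 58.8), with 131 of 389 (33.7%) above the midpoint. In the mixed list they had 61.8 (quartiles 30.9 and 87.5), with 238 of 389 (61.2%) above it. The flanks were less far apart, with medians of 68.1, 44.1 and 57.0 in the CMV, CGRP and mixed lists. The CMV list was thus above its midpoint there as well. Its median was 56.9 in the lower and 73.9 in the upper flank. In the CGRP list these medians were 43.7 and 45.2, and in the mixed list 59.6 and 56.4.

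The order of the lists was repeated at most single sites. The percentile was higher in the CMV than in the CGRP list at 345 of 389 sites of the stretch (88.7%), at 310 of 426 sites of the flanks (72.8%) and at 47.4% of sites over the genome. It was higher in the mixed than in the CGRP list at 322 of 389 (82.8%), against 68.5% in the flanks and 43.8% over the genome. All of CMV above mixed above CGRP held at 277 of 389 sites (71.2%), against 45.1% and 23.6%. By window, the CMV median stayed between 68.0 and 91.2 over the 6 windows of 1 Mb. The mixed median was highest at 82 to 83 Mb (77.8) and 83 to 84 Mb (69.0), the windows of its density plateau, and 34.6 at 84 to 85 Mb. The CGRP median was highest at 82 to 83 Mb (46.6), and between 18.97 and 29.96 in the other windows of the stretch. A high CMV median was not particular to the stretch. The upper flank had CMV medians of 81.3, 77.3 and 85.1 in the windows from 86 to 89 Mb, in order of position. The CGRP medians of these windows were 38.2, 25.6 and 68.8. From 89 to 92 Mb the CMV medians were lower, at 49.9, 53.7 and 61.0. In the lower flank, windows with at least 8 sites had CMV medians of 64.6 or below. Neighboring sites share libraries and are not independent, so no test was made of these shares.

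**Figure D3:**
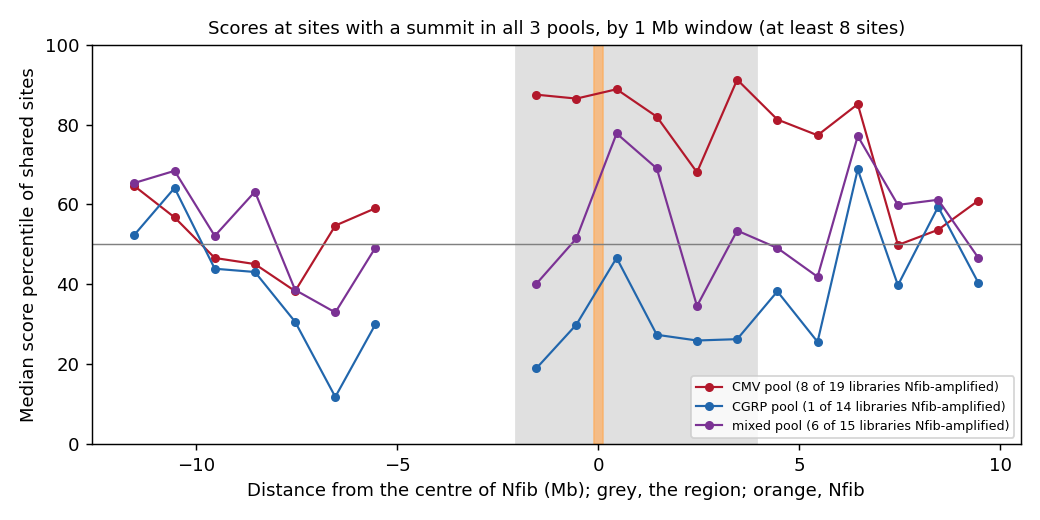
Median percentile of the score at sites with a summit in all 3 lists (y axis) by window of 1 Mb against distance from the centre of Nfib in Mb (x axis), for windows with at least 8 sites; the line at 50 is the midpoint of each list, grey the stretch and orange Nfib. Over the stretch the CMV medians run from 68.0 to 91.2 and the CGRP medians from 18.97 to 46.6, and the mixed list peaks at 77.8 in the window from 82 to 83 Mb.

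Sharing of sites was lowest in the CMV pool. Within 250 bp of both other pools lay 409 of its 2172 summits in the stretch (18.8%, 95% Wilson interval 17.2% to 20.5%), 17.9% in the flanks and 46.7% over its whole list. The stretch was thus close to its flanks and below the background of that list. Of the CGRP summits, 401 of 501 (80.04%, 76.3% to 83.3%) lay near both other pools, against 76.6% in the flanks and 66.8% over its list. In the mixed pool 398 of 1039 (38.3%, 35.4% to 41.3%) did, against 42.8% in the flanks and 56.1% over its list. The lists matched differ in density, whose part in these shares was not tested: 16.4% of the bases of the stretch lay within 250 bp of a CMV summit, 8.16% of a mixed-pool summit and 4.02% of a CGRP summit.

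Mixed-pool summits of the stretch matched the CMV list more often than the CGRP list, at 86.8% and 41.8%. The flanks were much alike, at 80.6% and 49.4%, and the whole list gave 76.6% and 68.7%. Near neither other pool lay 1227 CMV summits (56.5%), against 64.5% in the flanks and 32.8% over the list, so this share was lower in the stretch than beside it. The CGRP share was 9.58%, against 8.13% in the flanks and 13.6% over the list, and the mixed share 9.72%, against 12.9% and 10.8%. Such summits of the stretch had median scores of 5.41, 6.58 and 4.44 in the CMV, CGRP and mixed lists, each below the median of all summits of the stretch in its own list. The highest lay on chromosome 4 at 84851496 in the CMV list, with a score of 1492, followed by 84522384 (537) and 83716602 (388). The leaders of the other lists were at 83636579 in the CGRP list (score 79.7) and at 83475616 in the mixed list (score 61.9). Within their own lists the 3 leaders stood at percentiles 99.95, 71.4 and 75.9 in the CMV, CGRP and mixed pools.

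**Figure D4:**
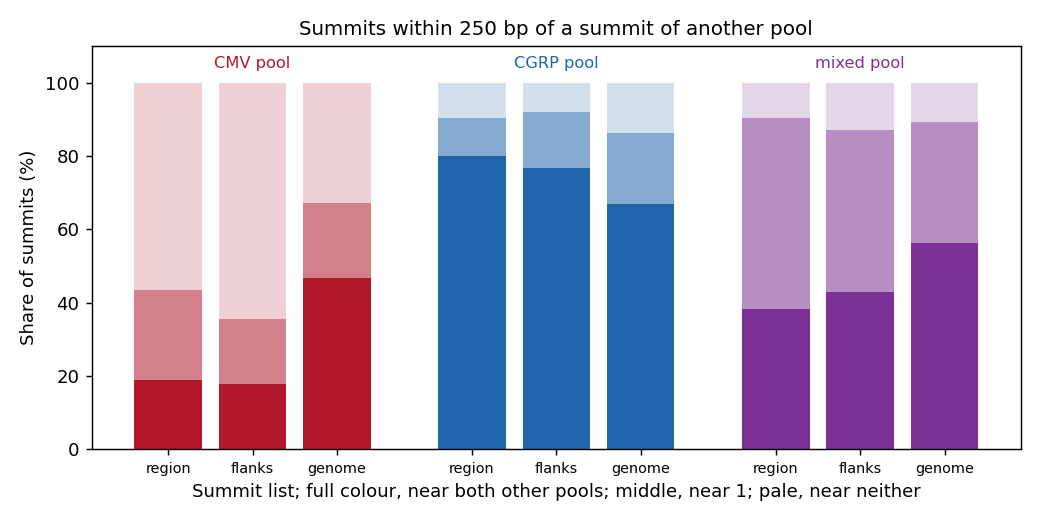
Share of summits in percent (y axis) that lay within 250 bp of a summit of both other pools (full colour), of 1 of them (middle) or of neither (pale), for the 6 Mb stretch, its flanks and the genome in each list (x axis). The share near neither in the stretch, flanks and genome was 56.5%, 64.5% and 32.8% for CMV, 9.58%, 8.13% and 13.6% for CGRP and 9.72%, 12.9% and 10.8% for mixed-pool summits.

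Called peaks in the stretch held a mean of 1.37, 1.18 and 1.25 summits in the CMV, CGRP and mixed lists. The shares that follow are of summits, not of peaks. Of the CMV summits, 1014 of 2172 (46.7%, Wilson interval 44.6% to 48.8%) belonged to a peak with more than 1 summit, against 29.7% in the flanks and 31.9% over the list, and the largest peak held 7. In the mixed pool the share was 36.0% (33.1% to 39.0%), against 23.9% and 27.8%. The CGRP share was 27.1% (23.4% to 31.2%), against 21.6% and 27.1%, so that its stretch matched its genome.

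The strongest shared sites of the stretch were drawn only from sites with a summit in all 3 lists. Their presence in every list follows from that choice. Ranked by their lowest within-list percentile, the first lay on chromosome 4 at 82970229 in the CMV list (score 3549), at 82970240 in the CGRP list (2071) and at 82970220 in the mixed list (3070). The next lay at 83063559 (score 3696), 83063546 (1974) and 83063553 (2940) in the same order. The third was at 82159208 (score 1863), 82159204 (1475) and 82159201 (1924), next to the upper end of Nfib. The fourth, at 83132501 in the CMV list, scored 2919, 1433 and 2653, and the fifth, at 84530299, scored 2733, 1253 and 1168. All 5 were above percentile 98.5 in every list, and 4 of the 5 lay above Nfib. No gene was assigned to them, since no mm9 annotation was used here.

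Nfib itself was densely covered in every list. Its span of 0.23 Mb held 70 CMV, 48 CGRP and 65 mixed-pool summits, or 304, 209 and 283 per Mb. Against the flanks these are ratios of 1.95 (1.52 to 2.48), 5.78 (4.21 to 7.76) and 4.40 (3.37 to 5.66). By density the order was CMV, mixed, CGRP over the gene and over the stretch alike. The CGRP and mixed pools were denser in Nfib than in the stretch around it (83.5 and 173 per Mb), and their intervals lay above the ratios of the stretch (2.31 and 2.70). The CMV pool was less dense in Nfib than in the stretch (362 per Mb). Its interval held the ratio of the stretch, 2.33, so this CMV difference was within counting error. In each list 35 summits of the gene lay near both other pools. That is 35 of 70 CMV summits, 72.9% of the CGRP and 53.8% of the mixed-pool summits of the gene. Over the whole lists these shares were 46.7%, 66.8% and 56.1%, and in the flanks 17.9%, 76.6% and 42.8%. Each whole-list share lay inside the Wilson interval of the gene (38.6% to 61.4%, 59.0% to 83.4% and 41.9% to 65.4%).

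Within Nfib, each list had more summits on the upper side of its centre than on the lower side. The upper end is the 5′ end, since mouse Nfib is read from the minus strand. The counts are small, and whether these splits differ from an even one was not tested. The upper side of its centre held 41 of 70 CMV, 30 of 48 CGRP and 44 of 65 mixed-pool summits. Within 10 kb on either side of the upper end, so in part beyond the gene, lay 9, 8 and 8 summits. The site at 82159204 was the strongest of the gene in the CGRP and mixed lists. The strongest of the CMV list was at 82030440, inside the gene, with a score of 2098, above the 1863 of the 5′ site. The other leading shared sites of the gene had lower scores. The site at 81950253 in the CMV list, near the lower end, scored 268, 359 and 473 in the CMV, CGRP and mixed lists. The site at 82152357, also close to the 5′ end, scored 645, 338 and 615. The sites at 81974281 and 82110413 scored 394, 258 and 386, and 597, 221 and 506.

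At the 35 sites of the gene found in all lists, the median percentile was 81.1 in the CMV list (quartiles 44.5 and 97.2), 41.5 in the CGRP list (21.8 and 66.7) and 71.6 in the mixed list (32.5 and 94.2). With 35 sites the intervals of these medians were wide, at 60.8 to 96.1, 24.7 to 63.7 and 41.4 to 88.9, and each overlapped both others.

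**Figure D5:**
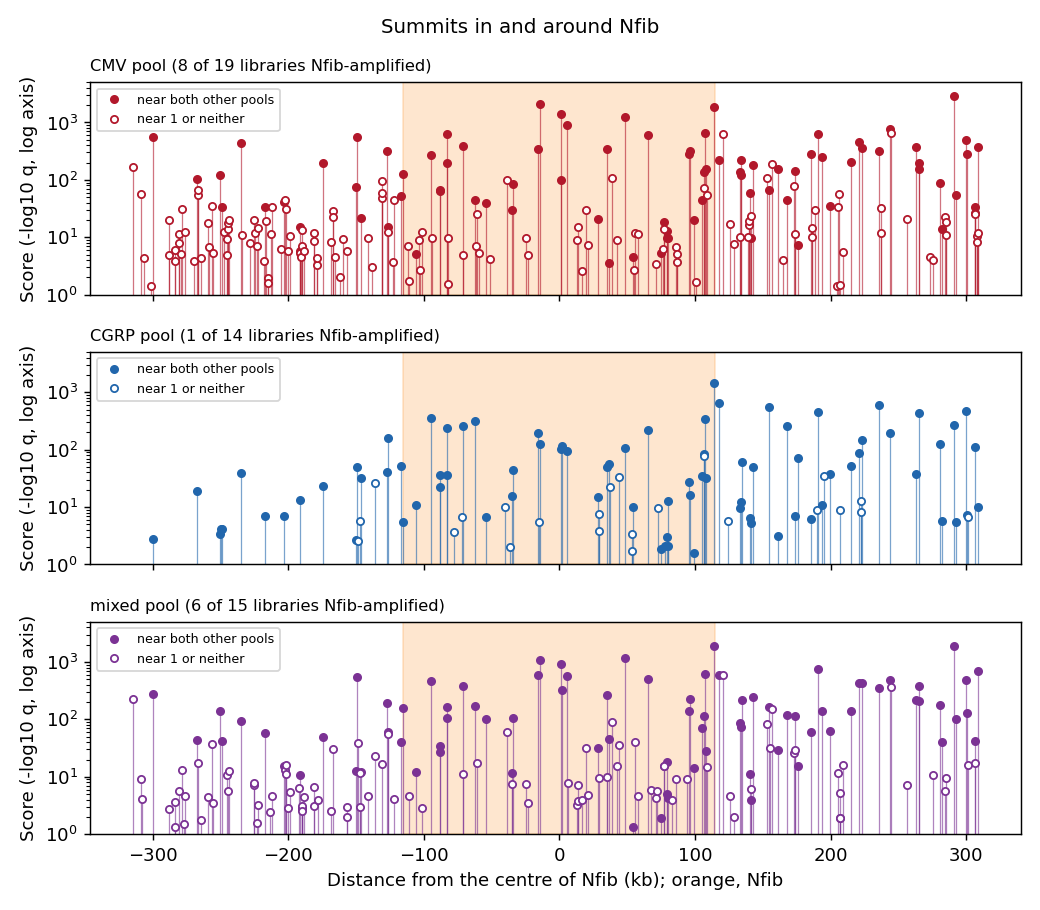
Score of each summit (y axis, −log10 q on a log scale) against distance from the centre of Nfib in kb (x axis) in each pool; filled points lay within 250 bp of both other pools, open points near 1 or neither, and orange marks Nfib. The gene holds 70 CMV, 48 CGRP and 65 mixed-pool summits, and a site of high score stands at its upper, 5′ end in every list.

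At the limits of the stretch, the summits just inside and outside were mostly weak. Around 80 Mb, the CMV list had scores of 6.88 at 79992455 and 3.15 at 80002663, and the mixed list 4.57 at 79865895 and 12.9 at 80163584. The CGRP list had 4729 at 79649857, a strong summit, and 2.78 at 80163621. The window from 79 to 80 Mb held 6 CGRP summits and 3 sites shared by all lists. Those sites had median percentiles of 99.97, 99.95 and 99.96 in the CMV, CGRP and mixed lists. Around 86 Mb, the scores just inside and just outside were 8.05 and 45.2 in the CMV list, 11.4 and 6.59 in the CGRP list and 3.73 and 12.2 in the mixed list.

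Whether these sites differ between amplified and not amplified tumors was not analysed here. The merged list of 114043 peaks, on which the authors compared Nfib-amplified with not amplified CMV libraries, held 0 peaks from 70 to 92 Mb in the form used here. Its nearest peaks on chromosome 4 ended at 65998903 and started at 92063366, leaving 26.1 Mb without one. In the authors' deposited table, the median log2 fold change over the 10 nearest peaks below was 1.02 (median SE 0.62), and 3 were raised and 0 lowered at an adjusted p under 0.05. The 10 nearest above had 0.58 (median SE 0.91), with 1 raised and 1 lowered, from the authors' deposited table. Over all peaks of the authors' deposited table the median was 0.60, with 34.3% raised and 12.2% lowered; with 10 peaks on a side, nothing is read from these counts.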

How the data were processed

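Libraries were prepared from lysed cells with Tn5 transposase and a modified Nextera kit, per the labels' protocols. The submitters' processing notes name Bowtie2, MACS2, DESeq2 and the mouse build mm9, but give neither version nor role. Read trimming, removal of duplicates and any Tn5 shift were not given in the sources used here. Per the labels, the authors called summits on libraries merged by preparation batch. Scores in the deposited lists were taken to be −log10 q-values, because the smallest, 1.30, equals −log10 of 0.05. The log2 fold changes, SEs and adjusted p-values are the authors' own, per the file headers, which match DESeq2 output, and the deposited table's name gives their direction. Library depth is unknown here.

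From these lists, summits were counted by position (1-based), as sharing within 250 bp, by score and by called peak (summits with the same peak name but for a final letter). Intervals are exact binomial for density ratios, binomial on ranks for medians and Wilson for shares. They cover counting error only. For a ratio of medians, the interval is that of the stretch median divided by a fixed flank median. The functions were tested on simulated data. The region, its members and the named sites were chosen with earlier results of these data known, and the score classes, the percentiles at shared sites and the scan for edges were added after the data were seen. Named sites are the 5 strongest shared sites of the region and of Nfib by lowest percentile, the 3 strongest summits of 1 pool only, those at the edges, and the 3 fullest windows of 100 kb. Further shared sites of Nfib were named for their scores in the CMV and mixed lists. The RefSeq promoter table held 0 entries for Nfib and the genome of build mm9 was not used, so no sequence is shown. Alternatives changed the score minimum, the list length, the sharing distance, the flanks and the limits of the region. Computation used scipy 1.17.1, numpy 2.4.6 and pandas 2.3.3 under Python 3.11.15, with plots from matplotlib 3.10.9.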

Additional observations from a re-analysis of the deposited data

How the results depend on the processing

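The ratio of density in the stretch to that in the flanks stayed above 1 in all 3 pools under all alternatives tried. In the CMV pool it was 3.30 with a score of at least 5, 2.03 with 1 summit per called peak, 3.93 among the 100000 highest-scoring summits and 2.50 for a region of 81 to 84 Mb. In the CGRP pool it was 2.01 among the 100000 highest-scoring summits and 3.28 for 81 to 84 Mb, and in the mixed pool 3.18 with flanks at 75 to 80 and 86 to 91 Mb and 3.87 for 81 to 84 Mb. The share near both other pools moved with the distance, to 15.4%, 66.1% and 32.8% within 100 bp and 21.9%, 85.8% and 42.5% within 500 bp (CMV, CGRP and mixed). With a score of at least 5 it was 20.7% (CMV) and 42.1% (mixed), and among the 100000 highest-scoring summits 23.7% and 46.4%. The ratio of median scores was 2.26 in the CMV pool for 81 to 84 Mb. Among summits near both other pools it was 2.61, 0.499 and 1.25 (CMV, CGRP and mixed). In the mixed pool it fell below 1, to 0.848, with the nearer flanks, from 1.05. The count in Nfib was 36, 26 and 32 among the 100000 highest-scoring summits and 151, 81 and 133 with the span widened by 0.1 Mb on each side, which lengthens it by construction. The causes of the other moves were not tested. The remaining 22 of 51 alternatives stayed within the counting interval, or, for counts, within 1.5 times. No paired analysis was possible because each pool is 1 merged list without values per library. Depth per library is unknown, so how many weak summits each list could show was not tested.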
